A study of Homo sapiens with 6 samples.

Results

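Interleukin 1 signalling was followed through 10 genes: the ligand genes IL1A and IL1B, the receptor antagonist gene IL1RN, the receptor genes IL1R1 and IL1RAP, the adaptor gene MYD88, the kinase genes IRAK4, IRAK1 and IRAK2, and the ubiquitin ligase gene TRAF6. They were named by symbol, and all 10 were among the 33890 genes of the expression table. All libraries came from LN229, an established cell line of a human grade IV glioma, cultured here without tumour tissue or host cells around it. Both groups of 3 libraries were polyadenylated RNA of this line: untreated control cells, and cells given 800 µM ursodeoxycholic acid (UDCA), a hydrophilic bile acid also given as a medicine for liver disease, for 48 h. The study's title asks about the activity of UDCA against glioblastoma.

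Interleukin 1 alpha and beta are cytokines that bind the same receptor, IL1R1, which signals only after it recruits the accessory protein IL1RAP. The paired receptors gather MYD88, IRAK4 and then IRAK1 or IRAK2 into one complex, and TRAF6 carries the signal from there to the kinases that activate NF-kappaB and the stress kinases. IL1RN encodes a protein that occupies IL1R1 without signalling. Interleukin 1 alpha is active as a precursor and is released by injured cells, whereas interleukin 1 beta needs to be cleaved first, and glioma cells and the astrocytes and microglia of the brain can make and answer both.

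Levels are in FPKM, reads scaled to the exon length of the gene and to the total of the library, and so can be set side by side between genes. The reads behind them, recovered from the FPKM, came to 15988951 to 17743022 per library, and 3 reads in a gene of 1 kb correspond to 0.169 to 0.188 FPKM. A log2 change is the UDCA mean less the control mean of log2(FPKM + 1), so that for genes near 0 it is smaller than the ratio of levels. It is given with its standard error and a p from limma adjusted over the 14380 genes tested, for which a minimum of 1 FPKM was required in any 3 libraries. Folds are ratios of mean FPKM. The labels do not say whether replicates were grown apart, so a p-value here reflects the variation among these libraries alone, part or all of which may be technical. Glial and glioma markers, chosen with earlier results of these data known, were present (SOX2, NES, VIM, S100B, CD44, EGFR and OLIG2). The astrocyte markers GFAP, AQP4 and ALDH1L1, however, lay under 1 FPKM in both groups. The summed level of the 10 glial and glioma markers was 749 to 765 FPKM in control and 164 to 167 FPKM with UDCA, with 5 of its 7 tested genes lower and 1 higher. Mitochondrial genes took 3.13% to 3.16% of the reads in control and 0.0263% to 0.0271% with UDCA. The part of either shift in the results below was not tested, except that library totals without mitochondrial genes left the call of every member as it was.

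IL1A and IRAK2 rose by more than an order of magnitude in the UDCA libraries, MYD88 fell 3.72-fold, and the other tested members moved by 2.05-fold or less. Of the 10 members 9 passed the minimum level and 8 of these 9 passed the test, 5 higher (IL1A, IRAK2, IL1R1, IL1B, TRAF6) and 3 lower (MYD88, IL1RAP, IRAK1). Among all tested genes 80.8% passed, 45.1% higher and 35.7% lower, so the members' count was close to that of the whole table. A change of at least 2-fold on the log2 scale was found in 3 members (IL1A, IRAK2, MYD88), against 24.3% of all tested genes. The 2 groups did not overlap in any of the 9 tested members, against 82.8% of all tested genes. The median change of the 9 was 0.36, beside 0.10 for all tested genes.

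**Figure D1:**
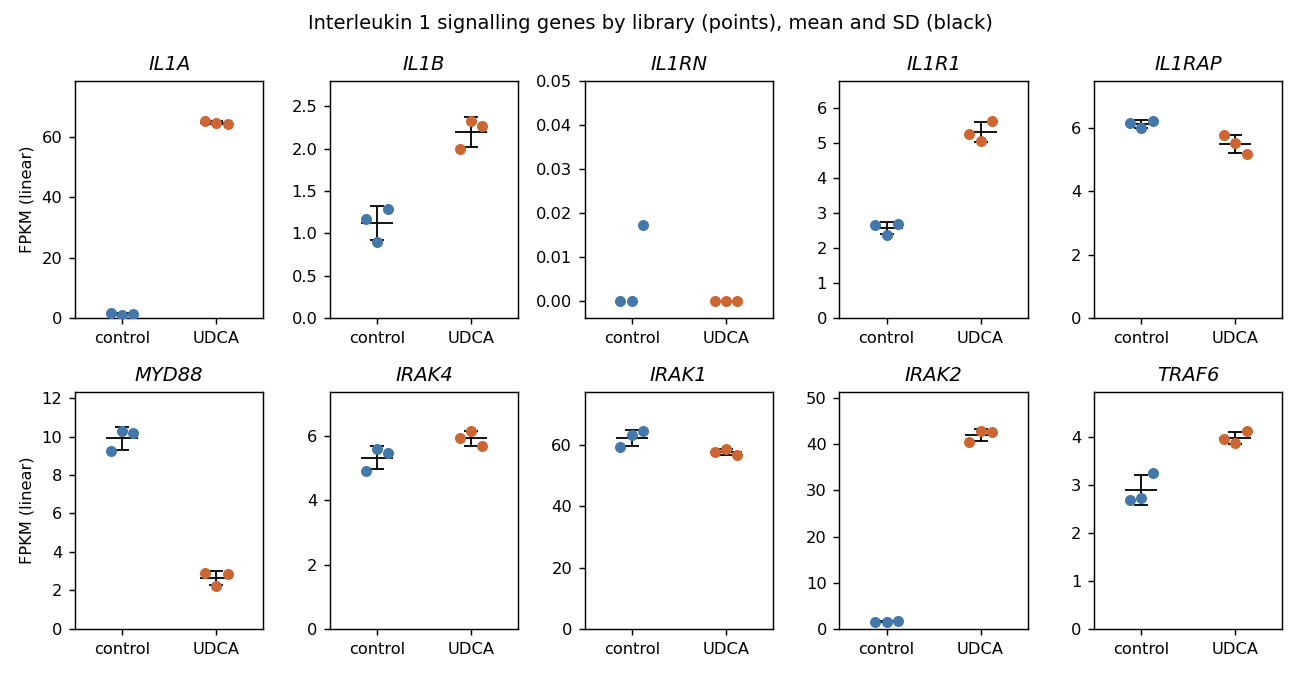
FPKM of each of the 10 genes in the 3 control libraries (blue) and the 3 UDCA libraries (orange), on linear axes that differ between genes; black bars are means and SDs (n = 3), left out for IL1RN, which had 1 read in all. The IL1A and IRAK2 points of UDCA stand far above control, those of MYD88 stand below, and the IRAK1, IRAK4 and IL1RAP points lie close together.

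The stretches of 250 bases before the RefSeq start of IL1A, IL1B, IRAK2 and MYD88 are shown so that the members with the largest changes, IL1A, IRAK2 and MYD88, can be read beside IL1B, the neighbour of IL1A. They come from GRCh38.p14, at chr2:112784494-112784743 (minus strand), chr2:112836780-112837029 (minus), chr3:10164669-10164918 (plus) and chr3:38138411-38138660 (plus), written 5′ to 3′ with the start just after the last base. Capitals mark matches, on either strand, to 3 motifs searched: the kappaB consensus of 10 letters, TGANTCA, which AP-1 factors bind, and TGATGNAA, the core of amino acid response elements.
IL1A: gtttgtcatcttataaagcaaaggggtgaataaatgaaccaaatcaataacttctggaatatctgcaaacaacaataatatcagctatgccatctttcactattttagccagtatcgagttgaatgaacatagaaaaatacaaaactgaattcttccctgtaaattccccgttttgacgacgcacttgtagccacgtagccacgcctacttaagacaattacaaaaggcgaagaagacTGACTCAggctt
IL1B: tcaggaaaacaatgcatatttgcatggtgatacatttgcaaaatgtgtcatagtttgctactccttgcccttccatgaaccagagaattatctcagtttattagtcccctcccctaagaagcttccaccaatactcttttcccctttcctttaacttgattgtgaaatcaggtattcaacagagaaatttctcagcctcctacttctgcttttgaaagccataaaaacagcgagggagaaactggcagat
IRAK2: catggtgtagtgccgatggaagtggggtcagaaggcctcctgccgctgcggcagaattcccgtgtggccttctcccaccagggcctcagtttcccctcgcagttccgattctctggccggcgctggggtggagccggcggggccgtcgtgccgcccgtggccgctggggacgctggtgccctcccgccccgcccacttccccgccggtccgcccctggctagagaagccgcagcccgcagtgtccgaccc
MYD88: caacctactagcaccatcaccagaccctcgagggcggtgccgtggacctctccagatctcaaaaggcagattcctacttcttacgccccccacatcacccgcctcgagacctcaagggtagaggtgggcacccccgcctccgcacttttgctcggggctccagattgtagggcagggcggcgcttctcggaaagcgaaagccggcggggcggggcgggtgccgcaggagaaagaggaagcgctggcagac
The 4 windows differ in base composition, with 37.6% G and C in IL1A and 40% in IL1B, but 72.0% in IRAK2 and 64.4% in MYD88. The only match among these 4 is TGACTCA in IL1A, from 12 to 6 bases before the start. In the windows of the other 6 members, TGAGTCA was found in IL1RN and GGGGCGCCCC, a kappaB match, in IRAK1. Of 35116 windows of this length in the table, 9.96% hold the kappaB consensus, 6.57% TGANTCA and 3.14% TGATGNAA. A match is a string of letters, not a site shown to be bound, and the windows hold no distant elements. For IL1A, IL1RN and IL1R1, which have several RefSeq starts, the one nearest the annotated gene start was used. In IL1RN and IL1R1 even this start lay well inside the annotated gene. Their windows end at 113117970 and 102104603, whereas the genes start at 113107214 and 102064544. The 4 windows shown also run into the annotated genes. On the minus strand, IL1A and IL1B begin at 112784590 and 112836903, inside their windows. IRAK2 and MYD88 begin at 10164865 and 38138478, also inside theirs. The TGACTCA of IL1A lies in the part of its window that is within the annotated gene.

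IL1A (ENSG00000115008, chromosome 2, 112773915 to 112784590, GRCh38, minus strand) stood at 1.58, 0.985 and 1.33 FPKM in control replicates 1 to 3 and at 65.4, 64.4 and 64.4 FPKM in the UDCA replicates. The control values lay near the minimum level, the UDCA values lay within 1 FPKM of each other, and the groups were far apart. IL1A rose 49.8-fold, from 1.30 ± 0.301 to 64.7 ± 0.564 FPKM (SD, n = 3), on 142 control reads and 6873 UDCA reads. Its change was 4.85 ± 0.09001 on the log2 scale (limma, adjusted p = 1.58e-08), the 11th largest rise of the 14380 tested genes. The libraries are bulk RNA, so more cells that make a transcript and more of it per cell cannot be told apart.

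IL1B (chromosome 2, 112829751 to 112836903), whose gene lies next to IL1A, encodes the other agonist and moved far less. It stood at 1.16, 0.901 and 1.29 FPKM in control and at 1.99993, 2.33 and 2.26 FPKM with UDCA, on 179 and 341 reads. Every UDCA library lay above every control library, by a small margin in absolute level. The rise was 1.96-fold, with a log2 change of 0.60 ± 0.0910 (limma, adjusted p = 0.000690).

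The ratio of IL1A to IL1B within a library turned from near equality to a large excess of IL1A. It was 1.36, 1.09 and 1.03 in the control libraries and 32.7, 27.6 and 28.4 with UDCA, without overlap. With 3 libraries against 3 the exact 2-sided permutation test cannot go below p = 0.1, and it gave 0.1 here, as it did for each of the 4 ratios tested in this way (0.1 after Benjamini-Hochberg adjustment over the 4).

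IL1RN (chromosome 2, 113107214 to 113134016), the antagonist gene, was close to absent in both groups. It had 1 read in control replicate 3, at 0.0173 FPKM, and was at 0 in the other 5 libraries. A count of 3 reads in this gene is 0.0519 to 0.0576 FPKM, so IL1RN lay under that floor throughout and was not tested, while IL1A was above 64 FPKM in each UDCA library. Secreted and intracellular forms of the antagonist come from the same gene and are not separated in this table.

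The receptor chain IL1R1 (chromosome 2, 102064544 to 102179874), which binds the ligands, stood at 2.67, 2.39 and 2.70 FPKM in control and at 5.25, 5.05 and 5.64 FPKM with UDCA. All 3 UDCA libraries exceeded all controls. IL1R1 rose 2.05-fold, with a log2 change of 0.82 ± 0.0599 (limma, adjusted p = 1.34e-05).

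Its partner IL1RAP (chromosome 3, 190514051 to 190659750), which other receptors of the family share, stood at 6.16, 5.98 and 6.23 FPKM in control and at 5.76, 5.51 and 5.18 FPKM with UDCA. The groups were separate, but the gap between them was smaller than the range of the UDCA libraries. The log2 change was -0.14 ± 0.0466 (limma, adjusted p = 0.03003). This call was lost without control replicate 1 (0.0776), control replicate 3 (0.0854), UDCA replicate 2 (0.0637) or UDCA replicate 3 (0.0779), over a range of 0.00264 to 0.0854 across the alternatives. As a result of both changes, IL1RAP exceeded IL1R1 by 2.30, 2.50 and 2.31 times in control and stood at 1.10, 1.09 and 0.918 times its level with UDCA, again without overlap (exact permutation p = 0.1).

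MYD88 (chromosome 3, 38138478 to 38143022), the adaptor that joins the receptors to the IRAK kinases, was the member that fell most. It stood at 9.24, 10.3 and 10.2 FPKM in control and at 2.88, 2.25 and 2.85 FPKM with UDCA. Every UDCA library lay far below the lowest control. MYD88 fell 3.72-fold, from 9.90 ± 0.580 to 2.66 ± 0.357 FPKM (SD, n = 3), on 2040 and 530 reads, with a log2 change of -1.58 ± 0.0819 (limma, adjusted p = 2.12e-06).

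The 3 kinase genes behaved differently from one another. IRAK2 (chromosome 3, 10164865 to 10243743), a kinase-like member of the complex that prolongs the signal, stood at 1.55, 1.44 and 1.63 FPKM in control and at 40.6, 42.8 and 42.6 FPKM with UDCA. Its control libraries were all under 2 FPKM and its UDCA libraries all above 40 FPKM. IRAK2 rose 27.3-fold, on 277 and 7321 reads, with a log2 change of 4.08 ± 0.0425 (limma, adjusted p = 1.31e-09), the 23rd largest rise of all tested genes.

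IRAK1 (chromosome X, 154010500 to 154019980), the kinase most abundant in control, stood at 59.4, 63.2 and 64.4 FPKM in control and at 57.8, 58.6 and 56.6 FPKM with UDCA. The highest UDCA library lay just under the lowest control. The log2 change of -0.11 ± 0.03399 passed (limma, adjusted p = 0.0206), but not with quantile normalization (-0.03, 0.382) or without control replicate 2 (0.06467), control replicate 3 (0.0638) or UDCA replicate 3 (0.05895), over a range of 0.000936 to 0.382.

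IRAK4 (chromosome 12, 43758944 to 43789543), the kinase that starts the cascade, stood at 4.92, 5.60 and 5.48 FPKM in control and at 5.93, 6.15 and 5.70 FPKM with UDCA. The lowest UDCA library was just above the highest control. Its log2 change of 0.13 ± 0.0551 did not pass (limma, adjusted p = 0.06205), although voom on the recovered reads called it (0.0357), over a range of 0.0357 to 0.561.

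Summed over the 3 kinase genes, the level was 65.8, 70.2 and 71.6 FPKM in control and 104, 108 and 105 FPKM with UDCA. IRAK2 made up 2.36%, 2.04% and 2.28% of that sum in control and 38.9%, 39.8% and 40.6% with UDCA. Per library, IRAK2 stood at 0.0247 ± 0.00180 times IRAK1 in control and at 0.728 ± 0.0256 times with UDCA. Against IRAK4 it went from 0.290 ± 0.0304 to 7.09 ± 0.339 times, so the less abundant of that pair in control became the more abundant with UDCA.

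**Figure D2:**
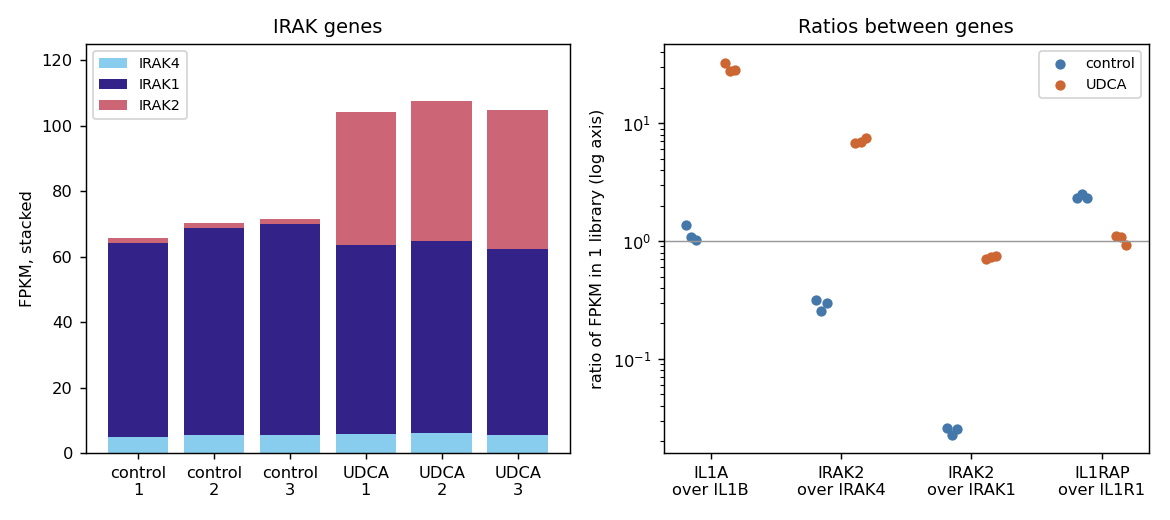
Left, FPKM of IRAK4, IRAK1 and IRAK2 stacked for each library, on a linear axis from 0. Right, ratios of FPKM between pairs of genes within each control (blue) and UDCA (orange) library, on a log axis with a grey line at 1; the added height with UDCA is IRAK2, and no ratio overlaps between the groups.

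TRAF6 (chromosome 11, 36487027 to 36510272), which receives the signal from the IRAK kinases, stood at 2.68, 2.73 and 3.24 FPKM in control and at 3.94, 3.87 and 4.11 FPKM with UDCA. Control replicate 3 was the nearest to the UDCA libraries and still below them. TRAF6 rose 1.38-fold, with a log2 change of 0.36 ± 0.0681 (limma, adjusted p = 0.00213).

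The order of levels changed with these shifts. In control it was IRAK1, MYD88, IL1RAP, IRAK4, TRAF6, IL1R1, IRAK2, IL1A, IL1B and IL1RN, where the library values of TRAF6 and IL1R1, of IRAK2 and IL1A, and of IL1A and IL1B overlapped. With UDCA it was IL1A, IRAK1, IRAK2, IRAK4, IL1RAP, IL1R1, TRAF6, MYD88, IL1B and IL1RN, where IRAK4 and IL1RAP, IL1RAP and IL1R1, and MYD88 and IL1B overlapped. IL1A thus moved from place 8 to place 1 and MYD88 from place 2 to place 8.

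**Figure D3:**
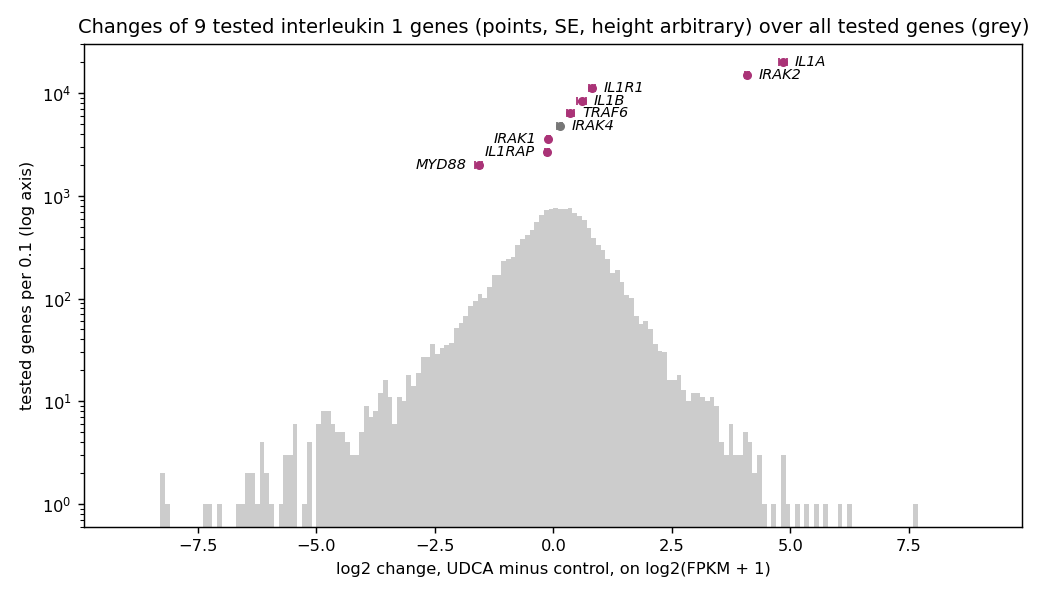
Log2 changes (UDCA minus control, log2(FPKM + 1) scale) of the 9 tested members, with standard errors, above a histogram of the same changes for all 14380 tested genes (log axis of counts); the height of a point has no meaning. IL1A at 4.85 and IRAK2 at 4.08 lie in the thin right tail, MYD88 at -1.58 lies in the left flank, and IRAK4, in grey, did not pass.

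Both interleukin 1 gene clusters of chromosome 2 held genes that rose beside genes that were hardly detected. In the receptor cluster (101991844 to 102452565) the order along the chromosome is IL1R2, IL1R1, IL1RL2, IL1RL1, IL18R1 and IL18RAP. IL1RL1, which encodes the interleukin 33 receptor ST2, stood at 0.0628, 0.0506 and 0.0196 FPKM in control and at 4.10, 4.58 and 4.16 FPKM with UDCA. It was all but undetected in control, on 13 reads in all, against 1232 with UDCA. Because it passed the minimum only through the UDCA libraries, its direction was fixed by that filter and its values are given as a description. Its overlapping neighbour IL18R1, the interleukin 18 receptor chain, stood at 1.45, 1.10 and 0.919 FPKM in control and at 13.4, 13.8 and 12.9 FPKM with UDCA. That is a rise of 11.6-fold without overlap (log2 change 2.74 ± 0.0909, limma, adjusted p = 2.26e-07). The annotated spans of these genes overlap on the plus strand, at 102311502 to 102352037 for IL1RL1 and 102311529 to 102398775 for IL18R1. Their exons share 1.65% of the exon bases of IL1RL1 and 2.18% of those of IL18R1. IL1R2, the decoy receptor, had 13 reads in control and 17 with UDCA, IL1RL2, the interleukin 36 receptor, had 1 and 0, and IL18RAP had 0 and 24. On chromosome X, the neuronal receptor genes IL1RAPL1 (227 and 129 reads) and IL1RAPL2 (4 and 2 reads) were also below the minimum.

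The ligand cluster (112773915 to 113134016) runs from IL1A to IL1RN. Apart from IL1A and IL1B, none of its listed cytokine genes (IL37, IL36G, IL36B, IL36RN and IL1RN) reached the minimum. Their means lay between 0 and 0.782 FPKM in both groups. IL36A and IL1F10 were looked up by symbol and could not be matched. Outside the clusters, IL18 and IL33, which encode ligands of IL18R1 and IL1RL1, had 4 reads each over all 6 libraries. These 2 ligand genes were thus close to undetected. IL18BP, which encodes a secreted protein that traps interleukin 18, was higher, at 2.64 ± 0.137 and 3.53 ± 0.373 FPKM (log2 change 0.31 ± 0.0741, limma, adjusted p = 0.00658), with 15.6% of its exon bases in an exon of NUMA1. SIGIRR, an inhibitory receptor of the family on chromosome 11, fell from 7.83 ± 0.433 to 5.45 ± 0.336 FPKM (log2 change -0.45 ± 0.0566, limma, adjusted p = 0.000237).

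**Figure D4:**
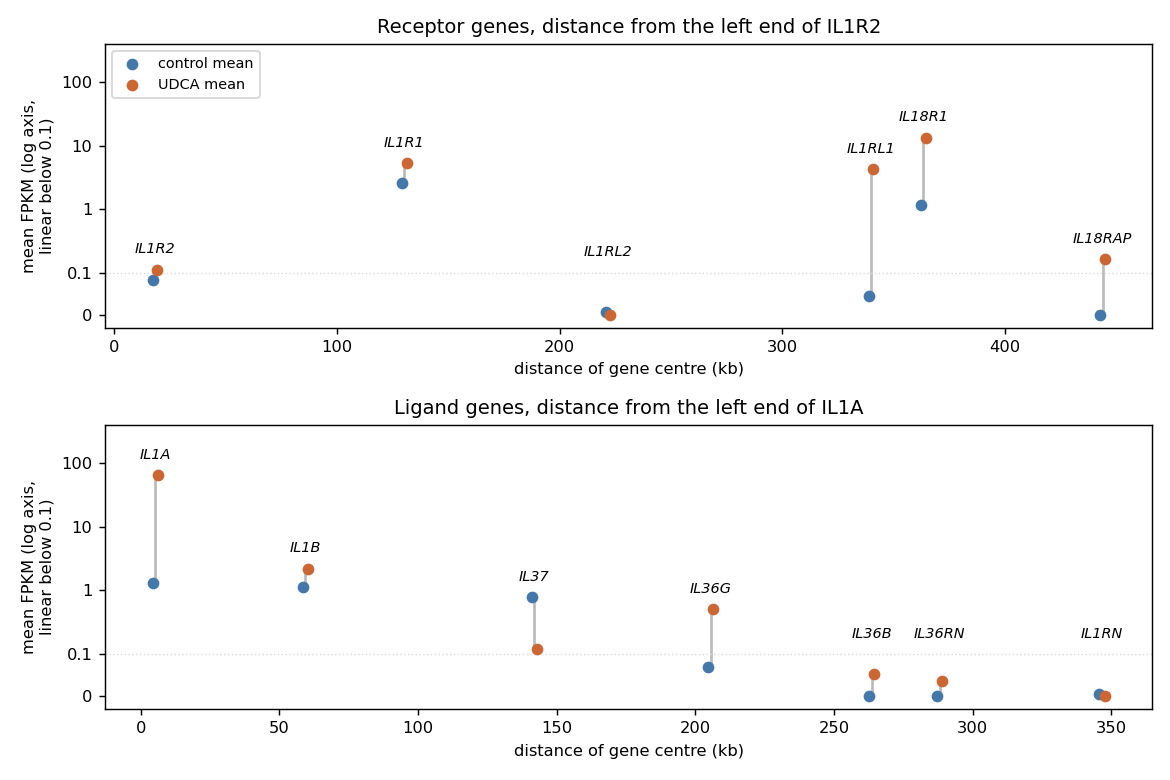
Mean FPKM (n = 3) in control (blue) and UDCA (orange) of the protein-coding genes of the receptor cluster (top) and the ligand cluster (bottom), against the distance of the gene's centre from the left end of the cluster in kb; the vertical axis is logarithmic above 0.1 FPKM and linear below. IL1A, IL1R1, IL1RL1 and IL18R1 stand higher with UDCA, while IL1RN, IL1RL2 and IL1R2 lie near the bottom in both groups.

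Other genes of the pathway were read in 6 lists by role, 91 symbols in all, of which 87 could be matched and 64 were tested. Of these, 52 were higher and 8 lower, beside 80.8% of all tested genes called, 45.1% higher and 35.7% lower. Of the 64, 7 had reached 1 FPKM only with UDCA, which fixes their direction. The lists were also chosen with earlier results of these data known, so the counts by list are descriptions. SOD2 was left out because its symbol belongs to 2 overlapping gene IDs, and CXCL2 was looked up by symbol and could not be matched.

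Of the genes that process and release interleukin 1, 10 were tested: 7 were higher, 2 lower and 1 did not pass, 9 called in all against 80.8% of the table. Their median change was 0.85, beside 0.10 for all tested genes. NLRP1, an inflammasome sensor, rose 4.43-fold from 5.53 ± 0.149 to 24.5 ± 0.311 FPKM (limma, adjusted p = 7.69e-09). CASP4, an inflammatory caspase, rose 5.83-fold to 6.68 ± 0.109 FPKM, and GSDME, a pore-forming gasdermin, rose 4.29-fold to 14.8 ± 0.443 FPKM. The inflammasome sensor NLRC4, at 0.568 ± 0.104 and 2.34 ± 0.235 FPKM, reached the minimum only with UDCA. The adaptor PYCARD, which links inflammasome sensors to caspase 1, had 2 reads in control replicate 3 and none in the other libraries. Of its exon bases 59.7% lie in PYCARD-AS1 on the opposite strand, and how reads in such overlaps were counted is not known, so its level is uncertain. CASP1, NLRP3, AIM2 and S100A13 were also below the minimum. Calpains, proteases that cut the interleukin 1 alpha precursor, were split: the large subunit gene CAPN2 rose 1.54-fold, whereas CAPN1 fell 1.67-fold and the shared small subunit gene CAPNS1 fell 2.14-fold, from 70.1 ± 1.45 to 32.8 ± 0.626 FPKM. HAX1, which binds the interleukin 1 alpha precursor among other partners, rose 2.20-fold to 86.1 ± 0.508 FPKM, and GSDMD did not pass, at 5.99 ± 0.260 and 6.62 ± 0.462 FPKM.

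Of 15 genes that relay the signal below TRAF6, 9 were higher and 3 lower, 3 did not pass, and the median change was 0.29. The 12 called are close to the share called in the whole table, 80.8%. The kinase gene MAP3K7, which encodes TAK1, rose 1.47-fold from 13.9 ± 0.517 to 20.5 ± 0.467 FPKM (limma, adjusted p = 8.13e-06). IKBKG, the regulatory subunit of the IkappaB kinase, rose 3.19-fold from 5.18 ± 0.160 to 16.6 ± 0.755 FPKM; a near-identical pseudogene makes this value uncertain. SQSTM1, a scaffold that binds TRAF6, rose 10.3-fold, with 22% of its exon bases in other genes, and MAP3K8, the kinase TPL2, went from 0.360 ± 0.0542 to 2.76 ± 0.488 FPKM, reaching the minimum only with UDCA. The 3 lower were UBE2N, the ubiquitin-conjugating enzyme that works with TRAF6, at 15.9 ± 0.504 and 9.36 ± 0.622 FPKM, MAP3K3 and TAB1. Of the exon bases of UBE2N, 39.5% lie in exons of NUDT4 on the opposite strand, and whether counting used strand is not given in the sources used here. TAB2, UBE2V1 and CHUK did not pass. Of the exon bases of UBE2V1, 42.9% lie in TMEM189-UBE2V1 on the same strand, so its level is uncertain.

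Among 13 tested genes listed as brakes on the pathway 12 were higher and 1 was lower. Among all tested genes 45.1% were higher and 35.7% lower. The median change of the 13 was 0.62. Other inhibitors were counted outside this list: SIGIRR, which was lower, IL18BP, which was higher, and IL1RN and IL1R2, which were not tested. NFKBIA, which encodes the NF-kappaB inhibitor IkappaB alpha, rose 15.4-fold from 10.7 ± 0.783 to 165 ± 5.68 FPKM (limma, adjusted p = 4.04e-09). TNFAIP3, the ubiquitin-editing enzyme A20, rose 12.4-fold to 23.0 ± 0.479 FPKM, and ZC3H12A, a ribonuclease that degrades cytokine transcripts, rose 11.7-fold to 43.1 ± 0.348 FPKM. The deubiquitinase gene CYLD rose 3.62-fold, and PELI1, a ubiquitin ligase that modifies IRAK1, was the 1 lower, at 13.6 ± 0.384 and 11.6 ± 0.404 FPKM. PELI1, PELI2 and PELI3 were counted in this list, but whether they act as brakes was not tested. IRAK3, the inhibitory member of the kinase family, had 5 reads in all. OTULIN passed narrowly (limma, adjusted p = 0.0449) and lost its call under quantile normalization (0.213), median-ratio scaling (0.450), totals without mitochondrial genes (0.122) and no filter (0.0803). It also lost it without control replicate 2 (0.1237), control replicate 3 (0.1232), UDCA replicate 1 (0.132) or UDCA replicate 2 (0.116), over a range of 0.00646 to 0.450.

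Of 22 tested genes known to respond to interleukin 1, 21 were higher and 1 was lower, beside 45.1% higher and 35.7% lower among all tested genes, and the median change was 2.86. CXCL3, PTX3, LCN2 and CXCL8 had the largest changes by the rule for named genes, with log2 changes of 6.02, 5.75, 5.54 and 5.18. PTGES, the prostaglandin E synthase, was the 1 lower, at 7.33 ± 0.333 and 3.80 ± 0.442 FPKM (limma, adjusted p = 5.22e-05). Of the 22, 4 reached the minimum only with UDCA: the cytokine genes IL6 (5 control reads and 349 UDCA reads), CSF2 (0 and 153) and TNF (0 and 193), and BIRC3 (94 and 6772), an inhibitor of cell death. The minimum level fixes the direction of these 4, and the median includes them. Of the exon bases of IL6, 20.7% lie in other genes on the opposite strand. Because the list was chosen with earlier results known, its count and median are descriptions. Many of the response genes also answer to other signals, and the libraries hold no measure of interleukin 1 protein.

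**Figure D5:**
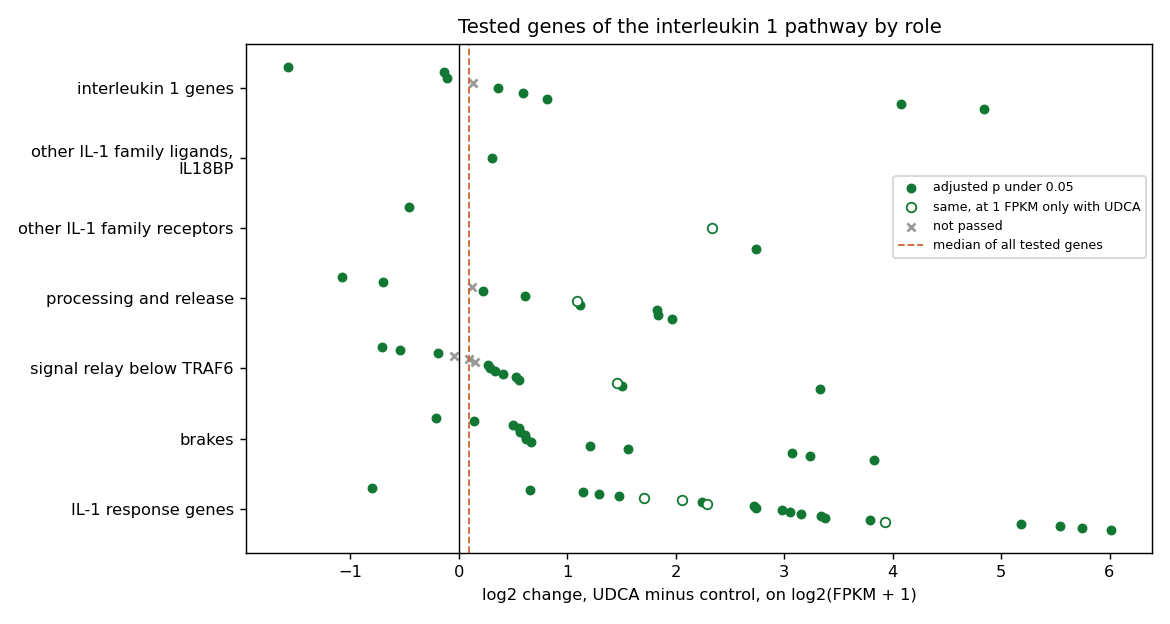
Log2 change (UDCA minus control, log2(FPKM + 1) scale) of each tested gene, in rows by role; filled points passed at an adjusted p under 0.05, open points passed but reached 1 FPKM only with UDCA, and crosses did not pass. The dashed line is the median of all tested genes, 0.10, and the response genes reach furthest to the right.

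Markers of blood and vessel cells, some of which make interleukin 1 in tissue, were near 0. Of 12 myeloid and microglial markers 9 were matched, and all 9 lay under 1 FPKM in both groups. Their summed level was 0.829 to 1.24 FPKM in control and 0.365 to 1.00 FPKM with UDCA. For CD68 85.8% and for LYZ 34.0% of exon bases lie in other genes, so the levels of CD68 and LYZ are uncertain. PTPRC, the leukocyte antigen CD45, had 15 control reads and 7 UDCA reads. Endothelial markers summed to 0.359 to 0.451 FPKM and 0.598 to 0.682 FPKM, and lymphocyte markers to 0.443 to 0.974 FPKM and 0 to 0.189 FPKM. Most reads of the endothelial markers were of VWF, with 109 in control and 316 with UDCA. PECAM1 had 11 and 4 reads, KDR 20 and 1, TEK 8 and 2, CLDN5 15 and 0, and CDH5 0 and 1. Of the keratinocyte markers KRT10 was higher (13.9 ± 1.12 and 29.7 ± 2.84 FPKM), while KRT5, TP63 and DSG3 lay under 1 FPKM. KRT14 stood at 2.84 ± 0.190 and 0.0263 ± 0.000952 FPKM, and reached the minimum only in control, which fixes its direction.

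Over the 6 libraries, the genes whose pattern lay closest to that of IL1A among 11059 protein-coding genes were TRIB3, BEX2 and GPR1, by a root mean square difference of centred log2 values of 0.112, 0.140 and 0.155. Closest to IRAK2 were UNC5B (0.0403), ADM2 (0.0510) and AKNA (0.0930). UNC5B, ADM2 and AKNA had control means of 0.139, 0.653 and 0.491 FPKM, and GPR1 had 0.0828 FPKM. All of these reached the minimum only with UDCA, which fixes their direction. Closest to MYD88 were FCRLA (0.0489), SOX4 (0.0580) and LIMCH1 (0.0676). With 2 groups of 3 libraries, likeness here means mainly a change of the same size between the groups on the log2(FPKM + 1) scale. It does not mean the same ratio of levels. By the ratio of mean FPKM, GPR1 rose more than IL1A, whereas TRIB3 and BEX2 rose less. By that ratio UNC5B, ADM2 and AKNA each rose more than IRAK2.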

How the data were processed

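Per the submitters' processing notes, the tools were HISAT2 and Bowtie2 2.0.6 and the build was GRCh38; which program counted reads, and whether by strand, is not given in the sources used here. As their result, the authors deposited 1 value per gene and library for 33890 genes without naming the unit, which was read as FPKM: multiplied by exon length (GENCODE 29, exons merged), the deposited values become whole reads in each library (100% of values within 0.01 reads). Gene coordinates match GENCODE 29 for all 33890, and symbols come from it.

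Groups follow the labels. limma-trend 3.58.1 in R 4.3.3 was fitted to log2(FPKM + 1) of the 14380 genes that reached 1 FPKM in 3 or more libraries. The test was 2-sided, with Benjamini-Hochberg adjustment at 0.05. It was also run on simulated data in which few genes changed, equally in both directions. In the real data most tested genes passed, so that run does not check the calls made here. Ratios between genes were compared by an exact permutation test. Tables and plots used Python 3.11.15, pandas 2.3.3 and matplotlib 3.10.9. Members, lists and markers were chosen with earlier results of these data known. Named genes are the 10 members, from each other list the called genes of largest change (4 at most, 2 FPKM or more), genes of classes of 5 or fewer, and the 3 nearest patterns of members changed at least 2-fold; CAPN2, MAP3K7, OTULIN and single markers were named after their values were seen. Alternatives were quantile normalization, median-ratio scaling, totals without mitochondrial genes, no filter, a pseudocount of 0.1, voom on recovered reads, a replicate block and leaving out each library. Replicates differed by more than sampling noise (chi-square over degrees of freedom 1.69 to 2.87), so each library counted as 1 sample. Promoter sequences are those of RefSeq, GRCh38.p14.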

Additional observations from a re-analysis of the deposited data

How the results depend on the processing

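All 9 tested members kept their direction under every alternative run, and IL1A, IL1B, IL1R1, IRAK2, MYD88 and TRAF6 also kept their call. The number of members called was 8, and 6 to 8 when 1 library was left out, 7 with quantile normalization, 9 with voom on recovered reads and 8 with median-ratio scaling, totals without mitochondrial genes, no filter or a pseudocount of 0.1. Replicate numbers did not pair the libraries: same-numbered libraries had deviations from their group means that correlated at 0.0143, -0.00119 and 0.00725 across genes. With the replicate number as a block, 7 members and 11503 genes were called, in place of 8 and 11624; the member lost was IL1RAP (limma, adjusted p = 0.0581). Over the alternatives, the log2 change ran from 4.74 to 5.65 for IL1A, from 3.99 to 4.76 for IRAK2 and from -1.90 to -1.49 for MYD88. Scaling moved the median of all tested genes from 0.0952 to 0.0023 (median-ratio scaling), a shift close in size to the changes of IRAK1, IRAK4 and IL1RAP. Among the other pathway genes, 60 were called, and 59 to 61 with 1 library left out. Voom on the recovered reads called 11818 genes, and no filter 14451. Of the genes that did not pass, TAB2 passed as lower with quantile normalization (0.01698) and median-ratio scaling (0.00995), UBE2V1 as higher without control replicate 3 (0.0177), and GSDMD as higher without UDCA replicate 3 (0.0203). Depth limits IL1RN and IRAK3, for which a few reads decide the level; for PYCARD the exon overlap with PYCARD-AS1 is a further limit.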

Other observations

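Of 23 listed pathway genes under the minimum level, and so outside the test, 11 had groups that did not overlap, 6 higher and 5 lower with UDCA; among all 19510 genes under the minimum 26.8% did not overlap. Both directions were found among the genes that process interleukin 1. CASP1, the protease that matures interleukin 1 beta, had 13, 7 and 8 reads in control and 62, 51 and 63 with UDCA, at 0.148 ± 0.0553 and 0.954 ± 0.127 FPKM (SD, n = 3). NLRP3, an inflammasome sensor, had 14 control reads and 72 UDCA reads, whereas AIM2, another such sensor, had 92 and 48. S100A13, which takes part in the release of interleukin 1 alpha, had 137 and 42 reads, with 33.5% of its exon bases in other genes. In the ligand cluster IL36G had 5 and 35 reads and IL37 34 and 5. Among the receptors, IL18RAP, the second chain of the interleukin 18 receptor, had no read in control and 8, 12 and 4 with UDCA, and IL1RAPL1 had 227 and 129 reads. Of the response genes, VCAM1 had 1 and 13 reads, MMP1 2 and 31, and SAA1 12 and 1. These 11 are all the listed genes of this kind, and they were singled out after their values were seen.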
